A study of Homo sapiens with 4 samples.

Results

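Heme is made from glycine and succinyl-CoA in a chain of enzymes that starts in the mitochondrion, passes through the cytosol and ends in the mitochondrion again. ALAS1 catalyses the first and rate-limiting step in cells other than red cell precursors, ALAD, UROS and UROD act in the cytosol, and CPOX, PPOX and FECH complete protoporphyrin and insert iron into it. The heme oxygenases HMOX1, which is inducible, and HMOX2, which is constitutive, open the heme ring and release iron, biliverdin and carbon monoxide. Every cell needs heme for its respiratory chain and other hemoproteins, and epithelial cells make their own.

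These 9 genes were examined in SAS cells, a line derived from a human squamous cell carcinoma of the tongue, after stable knockdown of astrocyte elevated gene-1 (AEG-1, also called LYRIC and listed as MTDH). SB cells (B in the labels) carry the lentiviral vector pLKO.1-LYRIC shRNA-B, and SCt cells (CTL in the labels) carry the pLKO.1 vector as labelled, whereas the paper names a scrambled shRNA. Both lines were kept under puromycin (2 μg/ml) after 14 days of selection, and the labels speak of stable clones without giving their number. RNA from SB cells (red dye) and SCt cells (green dye), 15 μg each, was hybridized together on each of 4 Agilent arrays, described in the labels as biological replicates. The paper speaks of independent biological replicates for its in vitro comparisons in general, in a number that differs from that of the arrays. Neither source says whether the 4 arrays came from separate cultures, so p-values measure the spread between these arrays, which may be technical. All 4 arrays lay on 1 slide and 0 had the dyes exchanged, so a preference of a probe for a dye cannot be told apart from a difference between the lines.

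The members were all non-control probes whose accession mapped to ALAS1, ALAD, UROS, UROD, CPOX, PPOX, FECH, HMOX1 or HMOX2, which gave 11 of the 34127 probes on the array. UROS and FECH had a pair of probes each and the other genes a single probe. The set was drawn around CPOX because CPOX had been seen to fall in SB cells, so its values are given as a description, without a test. By the criterion of the scanner software, each of the 11 probes stood well above background for both dyes on every array. All 11 passed the filter, as did 28505 probes of 23484 genes in all.

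That criterion is lenient, since on each array it passed 85.4% to 90.3% of spots for SB cells and 84.7% to 90.0% for SCt cells. The log2 ratios of array 1 and array 4 were nearly unrelated over all kept probes (Pearson r = 0.047, across probes, which are not independent), whereas the other pairs of arrays lay between 0.32 and 0.46. AEG-1 itself had a log2 ratio (SB over SCt) of −3.18 ± 0.17 (SD, n = 4 arrays; limma, adjusted p = 5.19e-10). Of 10 markers of squamous epithelium, 9 met it for both dyes on every array, KRT5, KRT14 and TP63 among them, and KRT6B did not. Of 4 fibroblast markers 3 met it, LUM on 0 arrays, and all 4 leukocyte markers did. Of 8 markers of red cell precursors, which make much heme, all had a probe that met it on every array. A gene's probes could disagree, as for HBG1, whose other probe met it on 3 arrays. The summed intensity of these 8 markers was 33802 to 44556 in SB and 19750 to 27042 in SCt cells before dye normalization, and their part in the results was not tested.

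The sequences just upstream of the last 3 enzymes are shown because these act one after the other in the mitochondrion and only the first of them, CPOX, was far from 0. Each line gives the 250 bases before the annotated start, 5′ to 3′ on the strand of the gene, from RefSeq (GRCh38.p14), with matches to the searched motifs in capitals. The CPOX window is chr3:98593612-98593861 on the minus strand, that of PPOX chr1:161166176-161166425 on the plus strand and that of FECH chr18:57586703-57586952 on the minus strand.
CPOX: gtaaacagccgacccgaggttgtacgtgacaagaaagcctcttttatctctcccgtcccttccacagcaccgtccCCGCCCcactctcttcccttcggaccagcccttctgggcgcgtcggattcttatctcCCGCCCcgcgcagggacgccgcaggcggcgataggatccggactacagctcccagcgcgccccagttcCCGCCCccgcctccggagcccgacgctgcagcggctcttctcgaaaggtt
PPOX: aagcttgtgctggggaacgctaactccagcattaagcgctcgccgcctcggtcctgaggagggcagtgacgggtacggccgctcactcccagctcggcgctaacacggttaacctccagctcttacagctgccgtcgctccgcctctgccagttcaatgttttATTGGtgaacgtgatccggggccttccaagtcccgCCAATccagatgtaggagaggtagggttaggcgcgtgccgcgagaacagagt
FECH: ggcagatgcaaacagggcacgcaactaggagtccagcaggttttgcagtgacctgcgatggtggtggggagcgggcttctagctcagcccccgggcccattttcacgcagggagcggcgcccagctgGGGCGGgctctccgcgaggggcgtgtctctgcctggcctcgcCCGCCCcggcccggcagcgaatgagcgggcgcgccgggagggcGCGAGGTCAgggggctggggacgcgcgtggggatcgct

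The motifs, searched on both strands, were GGGCGG, known as the GC box, the CCAAT box, the core of the antioxidant response element TGACNNNGC, the core of the cAMP response element TGACGT, and an NRF1 and an NF-kB motif. CPOX held 3 GC boxes and none of the other motifs, PPOX held 2 CCAAT boxes, and FECH held 2 GC boxes and 1 antioxidant response element core. No match overlapped another in these 3 windows. Of the 7 members with a RefSeq window (ALAS1, ALAD, UROD, CPOX, PPOX, FECH and HMOX2), 6 held a GC box, as did 42.3% of 27305 promoters, and 4 held CCAAT, as did 33.0%. FECH was the only one of the 7 with the antioxidant response element core (11.0% of all promoters). The cAMP, NRF1 and NF-kB motifs were in 0 of the 7 windows and in 7.42%, 5.53% and 1.73% of all promoters. A match describes letters in the window and not a bound site.

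CPOX, coproporphyrinogen oxidase, converts coproporphyrinogen III to protoporphyrinogen IX in the intermembrane space of the mitochondrion. Its probe (A_33_P3301025) had intensities of 1151, 1112, 1279 and 1023 for SB cells and of 1057, 1583, 2208.5 and 1394 for SCt cells on arrays 1 to 4, over local backgrounds between 27.5 and 55.0. The red signal was below the green on arrays 2 to 4 and slightly above it on array 1. After normalization its log2 ratio (SB over SCt) was −0.91, −1.12, −1.33 and −1.12, so all 4 arrays were lower in SB cells. The mean was −1.12 ± 0.17 (SD, n = 4), a 2.17-fold lower level, or 46.0% of that in SCt cells. Among the 23484 genes, each read by its brightest probe, CPOX had the fifth-lowest log2 ratio, after MTDH, MMP1, UHMK1 and CAPZA1 (−1.22) and just before SMIM13 (−1.11). Because CPOX is read by a single probe spotted once, the fall rests on 1 spot per array.

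The 8 other genes lay close to 0, and the array values of CPOX did not overlap with theirs. CPOX was chosen for its fall, so this is no result about the pathway. Of all genes, 99.97% had a mean log2 ratio of smaller size than that of CPOX. On arrays 1 to 4, the difference of CPOX from the median of the other 8 was −0.88, −1.13, −1.29 and −1.097 on the log2 scale, with a mean of −1.099 ± 0.17 (SD, n = 4). The lowest value of any of the 8 genes on any array was −0.38, for FECH on array 3, and the highest 0.18, for HMOX1 on array 3. None of the 8 passed an adjusted p of 0.05 (limma), 0 of them passed an unadjusted p of 0.05, and by the methods' t-test 0 passed either. Of all genes 3.51% passed the adjusted threshold (3.7% of all probes), 18.1% the unadjusted one and 13.7% the methods' t-test without adjustment, so a count of 0 among 8 says little about these genes. Their median log2 ratio was −0.015, beside 0.013 for all genes, and their median size of change was 0.016, beside 0.065.

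**Figure D1:**
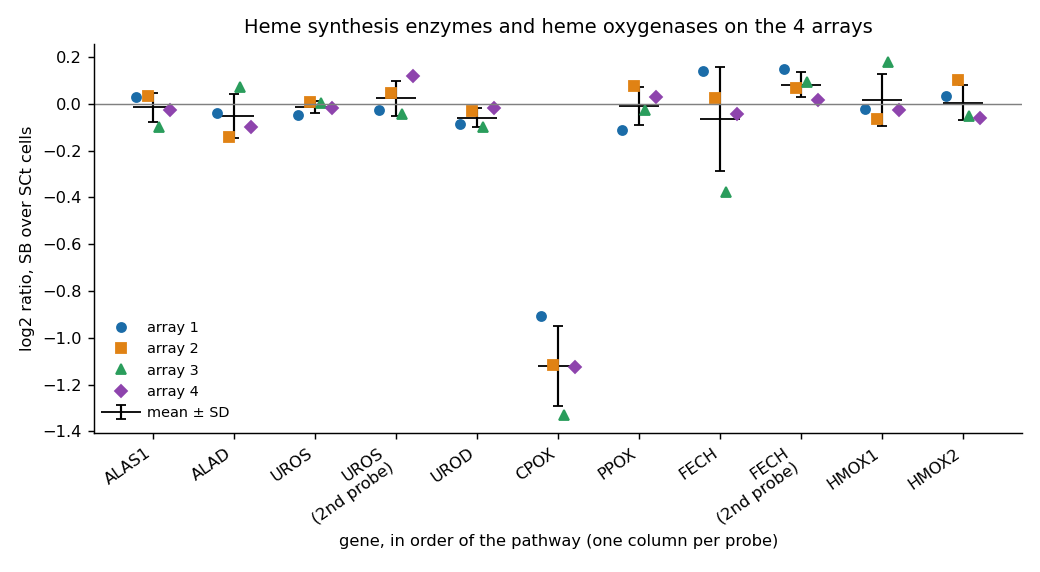
Log2 ratio of SB over SCt cells (y axis) for each probe of the 9 genes in pathway order (x axis). Symbols are the 4 arrays and bars the mean ± SD. The CPOX values lie between −0.91 and −1.33, and all other probes lie between −0.38 and 0.18.

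The signals before any normalization were looked at after the values above were seen. They come from the same spots, by which CPOX was chosen, so they are a description and no further support for its fall. The red channel was brighter than the green throughout, and the median ratio of background-subtracted red over green signal over all kept probes was 2.07, 1.53, 1.52 and 1.60 on arrays 1 to 4. The 8 other heme genes had median ratios of 2.11, 1.56, 1.5 and 1.59, next to those of all probes. CPOX had ratios of 1.07, 0.68, 0.56 and 0.72, which were 50.9%, 43.8%, 37.6% and 45.2% of the median of the other 8. The closest approach was FECH on array 3, at a ratio of 0.96. Since this ratio is taken within each array, it does not depend on loess or on the offset used in the background correction.

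**Figure D2:**
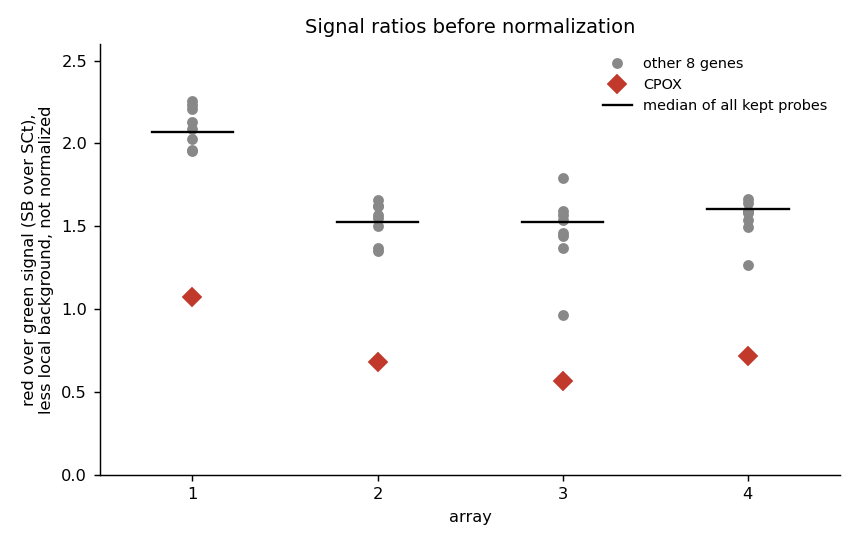
Red over green signal less local background, not normalized (y axis), on each array (x axis), for CPOX (diamonds) and the 8 other genes (grey circles); horizontal lines are the median of all kept probes. CPOX lies below every other heme gene on each of the 4 arrays, between 37.6% and 50.9% of their median.

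ALAS1, which sets the pace of the pathway and is repressed by heme in many cells, had log2 ratios of 0.030, 0.034, −0.097 and −0.028 on arrays 1 to 4. Its values fell on both sides of 0, with a mean of −0.015 ± 0.061 (SD, n = 4; limma, adjusted p = 0.916). The 95% interval of limma ran from −0.14 to 0.11. The erythroid isoenzyme ALAS2 had 0.084, 0.19, 0.18 and 0.094, higher in SB cells on 4 of 4 arrays. Of all genes, 26.1% had the same sign on all 4 arrays. The ALAS2 mean of 0.14 ± 0.056 (SD, n = 4) did not pass the threshold (limma, adjusted p = 0.203). Its probe was weak, with intensities of 83.0 to 113.5 in SCt cells over backgrounds of 24 to 30.

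In the cytosol, ALAD joins a pair of aminolevulinate molecules into porphobilinogen. It had −0.038, −0.14, 0.070 and −0.099, with 3 arrays lower and 1 higher, and a mean of −0.052 ± 0.092 (SD, n = 4; limma, adjusted p = 0.687). UROS, which closes the ring to uroporphyrinogen III, had −0.049, 0.0058, 0.0034 and −0.019 at its brighter probe, and the mean of −0.015 ± 0.025 lay beside 0.024 ± 0.076 at its other probe (SD, n = 4 each; limma, adjusted p = 0.917 and 0.867). UROD, which removes the side-chain carboxyl groups before CPOX acts, had −0.086, −0.031, −0.10 and −0.019. All 4 arrays were slightly lower in SB cells, and 26.1% of all genes had the same sign on all 4 arrays. The UROD mean of −0.059 ± 0.040 (SD, n = 4) did not pass the threshold (limma, adjusted p = 0.609).

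In the mitochondrion, PPOX, the enzyme that takes the product of CPOX, had −0.11, 0.078, −0.026 and 0.029, with a mean of −0.0082 ± 0.082 (SD, n = 4; limma, adjusted p = 0.959). FECH, ferrochelatase, had 0.14, 0.025, −0.38 and −0.042 at its brighter probe. Array 3 stood below the other 3, and the mean of −0.064 ± 0.22 (SD, n = 4; limma, adjusted p = 0.720) turned to 0.041 without array 3. The other FECH probe had 0.15, 0.067, 0.095 and 0.019, above 0 on each array, with a mean of 0.082 ± 0.054 (SD, n = 4; limma, adjusted p = 0.464). Both FECH probes were weak, with intensities of 63.0 to 145.0 in SCt cells over backgrounds of 25 to 33, so that the offset of 50 shrinks their ratios.

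Of the enzymes that break heme down, HMOX1 was spotted 10 times and had −0.023, −0.066, 0.18 and −0.025. Array 3 was the only one higher in SB cells, and the mean was 0.016 ± 0.11 (SD, n = 4; limma, adjusted p = 0.917). Its SD between the spots of an array was 0.027 to 0.043, less than that between arrays. HMOX2 had 0.035, 0.10, −0.053 and −0.059, with a mean of 0.0057 ± 0.076 (SD, n = 4; limma, adjusted p = 0.972).

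For the 7 genes other than CPOX and FECH, the 95% intervals of limma lay between −0.18 and 0.15, which leaves room for a level up to 1.13-fold lower or 1.11-fold higher in SB cells. For the brighter FECH probe the interval ran from −0.23 to 0.11, that is, up to 1.18-fold lower or 1.08-fold higher. For the other FECH probe, also weak, it ran from −0.038 to 0.20. Calls in this group changed when arrays were centred on their median instead of being normalized by loess. UROD was then called higher at 0.19 (limma, adjusted p = 0.0325) and FECH lower at −0.30 (limma, adjusted p = 0.00845). Genes within 0.25 of the mean log2 intensity of UROD had a median of 0.24 under that setting, and those near FECH one of −0.22, against −0.015 and 0.014 after loess. Relative to these medians, UROD stood at −0.045 and FECH at −0.083, close to their −0.045 and −0.077 after loess, and CPOX stood at −1.14 under both. Loess also removes the trend of the ratio with intensity, so this closeness is largely built in. It cannot decide between the settings, and why the calls changed was not tested.

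**Figure D3:**
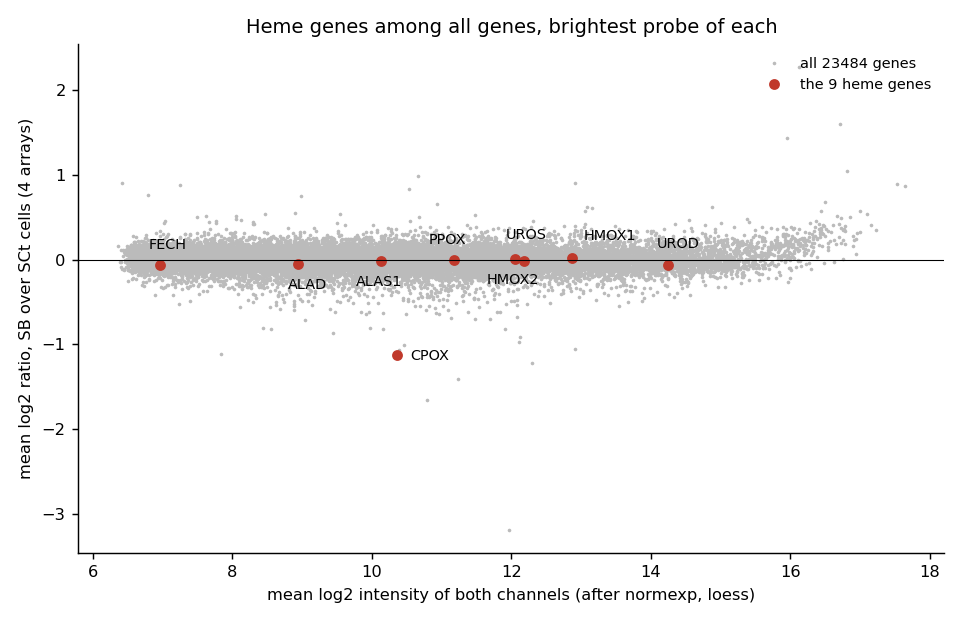
Mean log2 ratio of SB over SCt cells over 4 arrays (y axis) against the mean log2 intensity of both channels (x axis) for 23484 genes (grey) and the 9 heme genes (red). CPOX stands at −1.12 and the other 8 between −0.064 and 0.016.

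Genes that feed, carry, use or regulate heme and iron were taken from a list of 48, of which 46 had a named probe and 43 were tested. Of these, 2 fell in SB cells and 0 rose at an adjusted p of 0.05 (limma), beside 2.26% and 1.26% of all genes, and 10 of the 43 passed an unadjusted p of 0.05, beside 18.1% of all genes. The median of the 43 was −0.00033, beside 0.013 for all genes, with 21 above 0 and 22 below. The list was chosen with earlier results of these data known, and counts this small say little. They are no result about the list. Both called genes changed little in comparison with CPOX.

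ABCB10, a transporter of the inner mitochondrial membrane that is linked to heme production, was the gene called among 11 mitochondrial carriers and assembly factors. Its log2 ratios were −0.20, −0.18, −0.44 and −0.27, lower in SB cells on 4 of 4 arrays, with array 3 the lowest. The mean was −0.27 ± 0.12 (SD, n = 4; limma, adjusted p = 0.0305), a 1.21-fold lower level. Its other probe gave −0.19 ± 0.16 (SD, n = 4; limma, adjusted p = 0.149). PGRMC1, a heme-binding membrane protein that has been found in contact with FECH, was the gene called among 7 of heme traffic, at −0.22, −0.26, −0.33 and −0.15. The mean was −0.24 ± 0.078 (SD, n = 4; limma, adjusted p = 0.0404), a 1.18-fold lower level, lower on 4 of 4 arrays. For both genes, the 4 of 4 arrays stand beside 26.1% of all genes with the same sign on all 4. The call of ABCB10 was lost without array 1, 2 or 3 (adjusted p = 0.0615, 0.0804 and 0.168), and so was that of PGRMC1 (adjusted p = 0.0938, 0.179 and 0.193), each from limma. The paralog PGRMC2 had 0.077 ± 0.079 (SD, n = 4) and was not called.

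In the remaining groups no gene was called. The other 10 mitochondrial genes lay between −0.11 (TMEM14C, a carrier of porphyrin across the inner membrane) and 0.056 (SLC25A38, the glycine carrier that supplies ALAS1). The iron carriers SLC25A37 and SLC25A28 had −0.088 ± 0.025 and 0.015 ± 0.039, and ABCB6 had −0.050 ± 0.16 (SD, n = 4 each). In heme traffic, the exporter FLVCR1 had −0.00033 ± 0.092, and ABCG2, which exports porphyrins, −0.20 ± 0.26 with array 3 at −0.53 (SD, n = 4 each). FLVCR2 met the signal criterion on 0 arrays, and SLC46A1 was left out because its spot was marked as an outlier on all 4 arrays.

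Biliverdin reductases take up the product of the heme oxygenases: BLVRA had −0.15 ± 0.14 and BLVRB −0.060 ± 0.078, and COX10 and COX15, which turn heme into heme A for cytochrome oxidase, had 0.045 ± 0.15 and 0.13 ± 0.074 (SD, n = 4 each). Of 9 regulators tested, BACH1, the heme-sensing repressor of HMOX1, had −0.15 ± 0.045 and was lower on 4 of 4 arrays (limma, adjusted p = 0.153), while NFE2L2, the activator at the same sites, had −0.092 ± 0.044 and its inhibitor KEAP1 0.094 ± 0.039 (SD, n = 4 each). EIF2AK1, the heme-regulated kinase of translation initiation, had −0.030 ± 0.15 (SD, n = 4). Of the 9 genes of iron supply and storage, the transferrin receptor TFRC had 0.11 ± 0.21, the ferritin chains FTH1 and FTL 0.082 ± 0.090 and 0.14 ± 0.21, and the iron importer SLC11A2 0.15 ± 0.17, whereas the iron-regulatory proteins IREB2 and ACO1 had −0.21 ± 0.16 and −0.16 ± 0.16 (SD, n = 4 each). Their adjusted p-values from limma ran from 0.117 to 0.901 over the 9 genes.

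**Figure D4:**
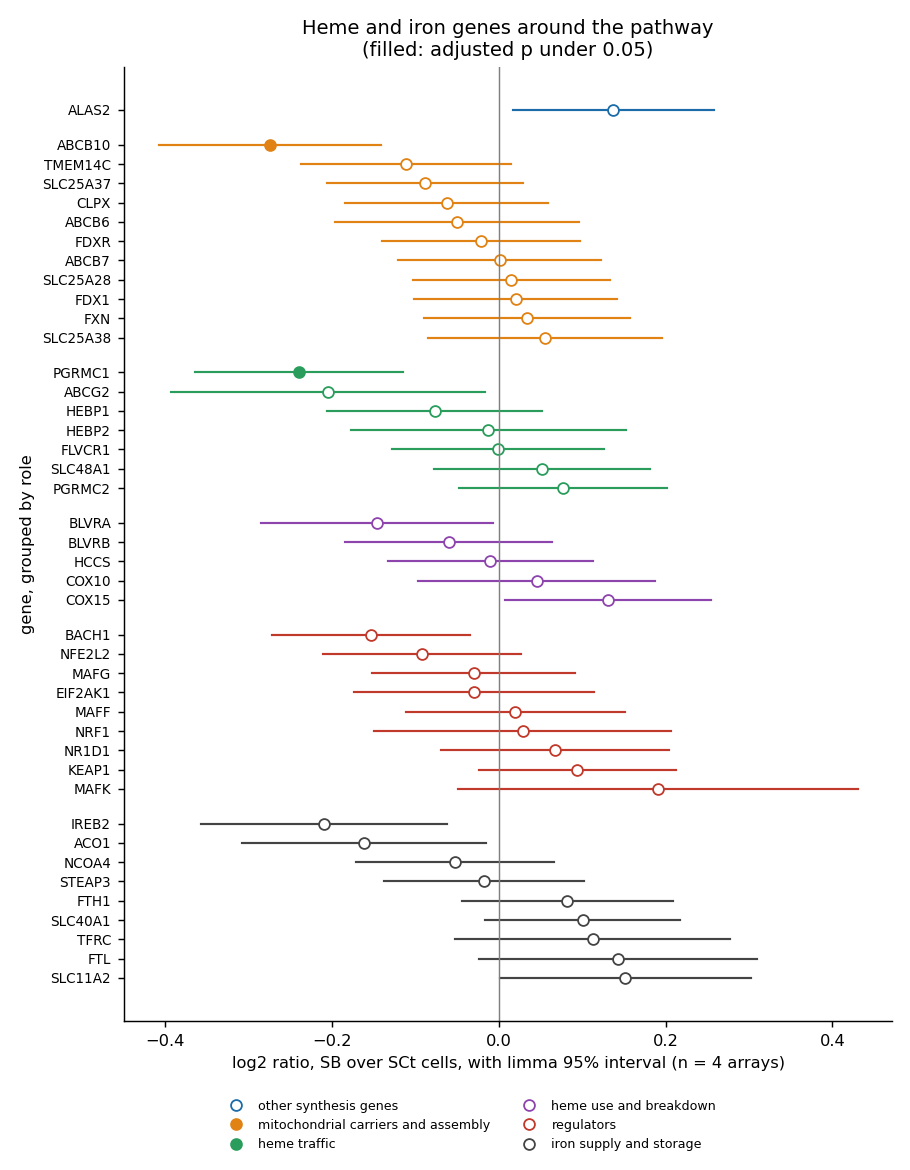
Log2 ratio of SB over SCt cells with the 95% interval of limma (x axis, n = 4 arrays) for heme and iron genes outside the 9, grouped by role (y axis, colours). Filled circles, ABCB10 at −0.27 and PGRMC1 at −0.24, passed an adjusted p of 0.05, and the others did not.

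CPOX lies on chromosome 3, and the 5 protein-coding genes on either side in the RefSeq table (GRCh38.p14) were examined for a shared shift. From one end to the other they are OR5K3, OR5K1, OR5K2, CLDND1 and GPR15, then CPOX, then ST3GAL6, DCBLD2, COL8A1, CMSS1 and FILIP1L. Of the 10, 8 were tested and 0 passed an adjusted p of 0.05 (limma), beside 3.51% of all genes. At an unadjusted p of 0.05, 2 passed by limma, beside 18.1% of all genes, and 1 by the methods' t-test, beside 13.7%, and by that test 0 passed an adjusted p. These counts are near the background and are no result about the neighbours. Their median was −0.029, beside 0.013 for all genes. The direct neighbours GPR15 and ST3GAL6 did not pass the filter on signal and had 0.088 ± 0.14 and 0.088 ± 0.065 (SD, n = 4 each). The lowest was DCBLD2, a membrane receptor, at −0.50, −0.070, −0.43 and −0.071, with a mean of −0.27 ± 0.23 (SD, n = 4; limma, adjusted p = 0.0905) at its brightest probe. Its other probes had −0.064 ± 0.30 and 0.088 ± 0.23 (SD, n = 4 each). The highest was OR5K2, an olfactory receptor gene, at 0.20 ± 0.062 (SD, n = 4; limma, adjusted p = 0.0722).

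**Figure D5:**
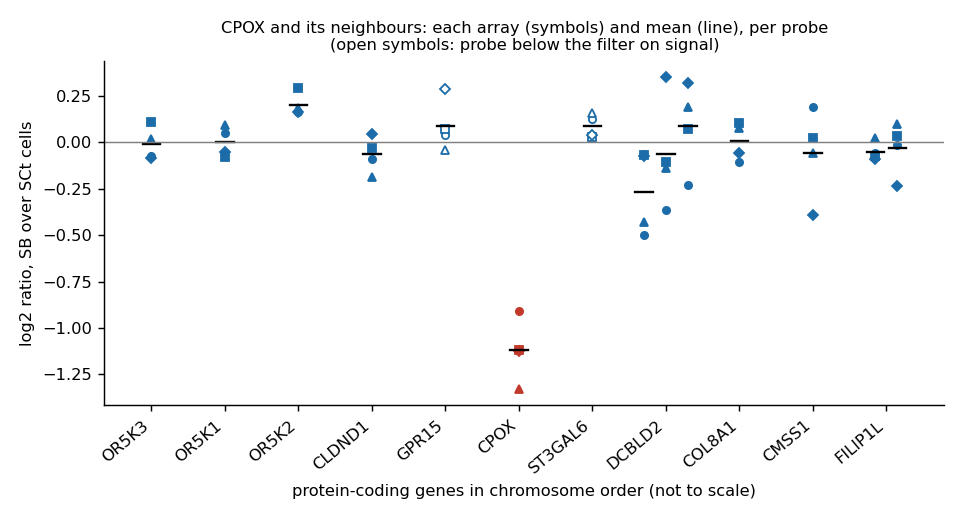
Log2 ratio of SB over SCt cells (y axis) for each probe of CPOX (red) and its 10 neighbours (blue) in chromosome order (x axis, not to scale); circles, squares, triangles and diamonds are arrays 1 to 4, and lines the mean. No neighbour has a mean below −0.27, beside −1.12 for CPOX.

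The genes whose 4 log2 ratios lay nearest to those of CPOX, by the root mean square difference over the 4 arrays among 23135 other genes with values on all of them, were C5orf15 (difference 0.11), CAPZA1 (0.11), SMIM13 (0.16), PXDN (0.19) and RRAS2 (0.24). C5orf15 had a log2 ratio of −1.06 ± 0.086, and CAPZA1, a subunit of the actin capping protein, −1.22 ± 0.13 (SD, n = 4 each). SMIM13, a small membrane protein, had −1.11 ± 0.20, PXDN, a heme peroxidase that crosslinks collagen IV, −1.07 ± 0.087, and RRAS2, a small GTPase, −0.91 ± 0.088 (SD, n = 4 each). This likeness is one of size and direction in a single contrast, and the genes are given without a test because CPOX was chosen on the same contrast. Among the 1577 genes within 0.25 of its mean log2 intensity, CPOX included, CPOX was the lowest, and 95% of them lay between −0.26 and 0.22.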

How the data were processed

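SB and SCt RNA were compared on 4 two-colour Agilent arrays. The authors deposited, per array, the output of Agilent Feature Extraction 10.5.1.1: raw red and green median intensities per spot with local background, and log10 ratios (red over green) that the software had background-subtracted and dye-normalized. They also deposited a series table on a log2 scale, equal to those software ratios to within 0.001 for 97.6% to 97.9% of probes per array; its column medians were −0.017 to 0.022, and its direction is SB over SCt. The number of arrays limits the precision. Mean spot intensities, which the design also allowed, are not used here.

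Analysis used limma 3.58.1 (R 4.3.3). After normexp background correction (offset 50), control spots (1377) and outlier spots (1.89% to 2.71%) were left out, and log2 ratios were normalized by loess within arrays and averaged over spots of a probe. Probes well above background in 1 channel on all 4 arrays (in over 0.5 of their spots), with values on at least 2 arrays, were tested against 0 with lmFit and eBayes, adjusted by Benjamini-Hochberg over 28505 probes. Fold changes on this scale are understated for weak spots. Each gene was read by its brightest probe. Of 34127 probes, 24826 were named through RefSeq (GRCh38.p14); the probe design is on an earlier build. FDX2 and POR were not matched to a probe and are not analysed here, and a further gene counted in the lists is not reported here.

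The members, the lists and the tests were chosen with earlier results of these data known, and the genes named are the 9 genes, those of 48 related genes that passed the threshold or that a sentence on roles needs, the 5 neighbours on each side of CPOX and the 5 genes most like it. The methods' t-test is a one-sample test on the same values. Alternatives were median centring, the series table, the ratios of the software, no background correction, no offset, Aquantile, no filter or one on both channels, outlier spots kept, trend and robust eBayes, the methods' t-test, the mean or most changed probe of a gene, and each array left out.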

Additional observations from a re-analysis of the deposited data

Results flagged for a closer look

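Of 84 kept probes of the genes named or listed here, 3 had an array far from the others, where chance marks about 5% of groups. At OR5K2, a neighbour of CPOX, array 2 had a log2 ratio of 0.29 and the others 0.16 to 0.18, and the gap to the nearest array was 0.837 of the range over the arrays. At a probe of FTH1 other than its brightest (A_33_P3253249), array 1 had 0.31 and the others 0.000020 to 0.034, a share of 0.89. At a probe of SLC11A2 other than its brightest (A_24_P381494), array 3 had −0.17 and the others 0.16 to 0.19, a share of 0.928.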

How the results depend on the processing

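CPOX was lower in SB cells under all 16 alternatives run, at log2 ratios from −1.19 to −1.04, within 1 SD between arrays of the reported value, and its place from the lowest gene was 5 or 6. All of them reuse the spots by which CPOX was chosen. Several, such as Aquantile, the filters, the eBayes options and the choice of probe, leave its ratio unchanged. AEG-1 kept its call except under the methods' t-test (−3.18, adjusted p = 0.143, with a range of −3.24 to −3.06 over all alternatives). The count of 0 called among the 8 other heme genes changed only under median centring, to 2: FECH became called, and UROD turned to 0.19. The related genes called, 2 as reported, were 0 with the software's ratios, the series table, no offset, trend and robust eBayes or the methods' t-test (10, 10, 7, 10 and 9 at an unadjusted p under 0.05), 1 with the mean over probes, 15 under median centring (13 higher and 2 lower) and 0 to 3 with an array left out (0 without array 1, 2 or 3, with 7, 6 and 8 at an unadjusted p under 0.05). The call of ABCB10 was lost under 10 of 17 alternatives and that of PGRMC1 under 9, with both lower in SB cells throughout. Probes past the threshold numbered 1055 (376 higher and 679 lower), 8937 under median centring (5599 higher and 3338 lower), 698 with the series table, 579 with trend and robust eBayes, 0 by the methods' t-test (3936 at an unadjusted p under 0.05), and 204 (without array 3) to 1991 (without array 4) with an array left out, with 640 without array 1 and 431 without array 2. The cause of these changes was not tested, and the brightness medians given for median centring are a description. Each test was made on the ratios within arrays, which pair the lines, and no further replicate block could be fitted because each replicate number holds 1 ratio. Most genes were read by 1 spot per array, and the offset shrinks the ratios of weak spots such as those of FECH.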

Other observations

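Some genes of the heme and iron list had probes that pointed in different directions. BACH1 had a log2 ratio of −0.15 ± 0.045 at its brightest probe and 0.071 ± 0.28 at the other, where arrays 1 and 2 had −0.19 and −0.15 and arrays 3 and 4 had 0.32 and 0.31 (SD, n = 4 each). COX15 had 0.13 ± 0.074 and −0.021 ± 0.15, and SLC48A1, a heme importer of endosomes and lysosomes, 0.052 ± 0.10 and −0.12 ± 0.14 (SD, n = 4 each). MAFK, a partner of BACH1 and NFE2L2 on DNA, had 0.74 on array 3 and between −0.058 and 0.13 on the other arrays.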
